A study of Mus musculus with 9 samples.

Results

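The genes described here are the clustered core and linker histone genes of the mouse, chosen as all rows of the expression table whose symbol starts with Hist1h, Hist2h, Hist3h or Hist4h. The rule found 67 of 23951 genes and used no measured value. By family they were 6 genes for linker histone H1, 18 for H2A, 18 for H2B, 12 for H3 and 13 for H4. By cluster, 53 lay in Hist1 on chromosome 13, 10 in Hist2 on chromosome 3, 3 in Hist3 on chromosome 11 and 1 in Hist4 on chromosome 6. RNA was sequenced from bone marrow-derived mast cells (BMMCs), which are mast cells grown in culture from marrow with the cytokines IL-3 and SCF.

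All 9 libraries came from wild type C57BL/6 mice, from marrow cultured for 4 to 6 weeks with both cytokines at 10 ng/ml, and from cultures recorded as over 95% positive for FcER1 and CD117. The age and sex of the mice were not given in the sources used here. The untreated group (3 libraries) received no further treatment. The IgE group (3 libraries) was sensitized with DNP-IgE at 0.5 µg/ml for 18 h, which occupies the IgE receptor on the cell surface. The antigen group (3 libraries) received DNP-BSA at 50 ng/ml for 2 h after the IgE step, which crosslinks the receptor-bound IgE and activates the cells. The labels do not state whether the libraries of a group are separate cultures or mice. A p-value here therefore reflects only the spread between these libraries, and that spread may be technical.

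Histone H2A, H2B, H3 and H4 form the protein core around which DNA is wound, and H1 binds the DNA where it enters and leaves that core. The clustered genes are transcribed mainly while DNA is copied, and their mRNAs typically end in a short stem-loop in place of a poly(A) tail. The stem-loop is bound by SLBP, which supports 3′ end processing and translation, and the mRNAs are degraded when DNA synthesis stops. Genes for replacement histones such as H3.3 and H2A.Z lie elsewhere in the genome, carry poly(A) tails and are expressed outside S phase as well.

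The stem-loops are shown because they are the shared element of these mRNAs and differ by family. In the GENCODE M21 transcripts, 44 of the 67 genes held a 16-base stem-loop motif after the coding sequence (GG, any 2 bases, CTTTT, any base, AG, any 2 bases, CC), against 0.161% of all annotated genes, and the motif began 21 to 58 bases past the stop codon. Of the 23 genes without it, 15 had annotated transcripts that ended within 30 bases of the coding sequence, so the region was not covered there. The sequences below run 5′ to 3′, with the stem-loop in capitals and 5 bases of flank on each side.
Hist1h1c (H1): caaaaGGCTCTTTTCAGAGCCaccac
Hist1h1d (H1): caaacGGCTCTTTTCAGAGCCaccca
Hist2h2ac (H2A): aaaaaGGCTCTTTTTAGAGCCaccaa
Hist1h2bb (H2B): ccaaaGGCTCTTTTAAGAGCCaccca
Hist1h3e (H3): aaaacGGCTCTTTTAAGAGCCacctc
Hist1h4d (H4): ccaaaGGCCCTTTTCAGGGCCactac
Hist1h4b (H4): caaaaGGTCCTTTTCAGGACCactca
Among the 11 H4 genes with the motif, 7 had the stem strands GGCCCT and AGGGCC around the loop TTTC, 2 had the same stem with the loop TTTT, and 2 had the stem GGTCCT and AGGACC, as in Hist1h4b. In the other families the stem was GGCTCT and AGAGCC throughout, and the last base of the loop was C in 26 genes, A in 6 and T in 1, which was Hist2h2ac.

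The deposited values are FPKM, that is, fragments per kilobase of transcript scaled by library size. Levels of different genes can therefore be set side by side per length, as far as the transcript lengths used by the authors were right. From the spacing of low values of 2966 genes with a single GENCODE transcript, depths of roughly 29.8 to 33.6 M reads were estimated for the untreated, 32.2 to 40.2 M for the IgE and 20.6 to 28.5 M for the antigen libraries. At the lowest depth, counting error alone would give a transcript of 0.5 kb a coefficient of variation of 31.2% at 1 FPKM, 9.85% at 10 FPKM and 3.12% at 100 FPKM. Mast cell markers summed to between 14471 and 16257 FPKM in every library, although Cpa3 and Cma1, a pair of mast cell proteases on that list of 12, were listed at 0 in all 9. The largest were Tpsb2, at a mean of 6680, 6256 and 7420 FPKM in untreated, IgE and antigen libraries, and Fcer1a, at 5652, 5639 and 4815 FPKM. Kit stayed at 447, 433 and 457 FPKM, while Ms4a2 was at 1190, 1080 and 626 FPKM and Hdc at 27.1, 28.7 and 895 FPKM. Neutrophil markers summed to at most 2.68 FPKM, and B and T cell markers to at most 0.272 FPKM. The 3 basophil markers summed to 507 to 545 FPKM in untreated, 423 to 477 FPKM in IgE and 553 to 574 FPKM in antigen libraries. In that order Prss34 averaged 120, 92.1 and 54.7 FPKM, Cd200r3 393, 344 and 492 FPKM, and Mcpt8 12.4, 16.9 and 19.5 FPKM. The 7 macrophage markers found summed to 31.1 to 33.9 FPKM in untreated, 37.3 to 39.7 FPKM in IgE and 45.5 to 49.2 FPKM in antigen libraries, and the 6 erythroid markers to 17.8 to 21.0, 24.7 to 25.9 and 30.5 to 31.8 FPKM. No marker of either list was at 0 in all 9 libraries. The 5 megakaryocyte markers, of which Ppbp was at 0 throughout, summed to 451 to 457, 375 to 393 and 405 to 419 FPKM. The part of these shifts in the histone values was not tested.

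Most clustered histone genes were measured at high levels in these cells. By mean over the 9 libraries, 39 of the 67 were at 100 FPKM or more, 12 at 10 to under 100 FPKM, 5 at 1 to under 10 FPKM, 10 above 0 and under 1 FPKM, and Hist1h4n was listed at 0 throughout. The highest was the H4 gene Hist1h4d, with a mean of 2210 FPKM. Whether the libraries were made from RNA selected by its poly(A) tail is not given in the sources used here. A test was made for 57 of the 67 genes, those with at least 1 FPKM in at least 3 libraries. Of these, 56 were at 1 FPKM or more in all 9 libraries, while Hist2h2aa2 passed through the antigen libraries only.

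The 10 genes left untested included the germline forms. Hist1h1t, the testis linker histone, was at 0.196, 0.630 and 0.236 FPKM in the untreated libraries, 0.775, 0.596 and 0.388 FPKM with IgE and 1.39, 0.753 and 0.774 FPKM with antigen. Hist1h2ba, which encodes the testis form of H2B, lay between 0.128 and 0.639 FPKM, and Hist1h2aa, its H2A counterpart, between 0 and 0.239 FPKM. These values were near or below the level at which counting error is large. The other untested genes were Hist1h2ao, Hist1h2ap, Hist1h2bq, Hist1h4n, Hist2h2aa1, Hist2h3c1 and Hist2h3c2. Several of them have near copies: the annotated coding sequences of Hist1h2ao and Hist1h2ap are identical, as are those of Hist2h2aa1 and Hist2h2aa2 and those of Hist1h4m and Hist1h4n.

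Summed over all 67 genes, histone mRNA was at 11362, 14610 and 14759 FPKM in the 3 untreated libraries. The IgE libraries were at 18625, 21133 and 19108 FPKM, and the antigen libraries at 19195, 18948 and 14412 FPKM. Every IgE library was above every untreated library, whereas antigen replicate 3 lay within the untreated range. Mean sums were 13577 ± 1919, 19622 ± 1331 and 17518 ± 2693 FPKM (SD, n = 3 each), which is 1.45-fold from untreated to IgE, 0.893-fold from IgE to antigen and 1.29-fold from untreated to antigen. In these bulk samples, fewer cells in S phase and less histone mRNA per such cell cannot be told apart.

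The 5 families had similar profiles. The sum for H1 was 1900 ± 137 FPKM untreated, 2551 ± 88.7 with IgE and 2388 ± 191 with antigen (SD, n = 3 each). For H4, the family with the largest sum, it was 5269 ± 884, 7645 ± 568 and 6646 ± 1101 FPKM. From untreated to IgE the sums of H2A, H2B and H3 stood at 1.43-, 1.48- and 1.48-fold, and from IgE to antigen at 0.923-, 0.894- and 0.895-fold. These are ratios of means and were not tested as sums.

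**Figure D1:**
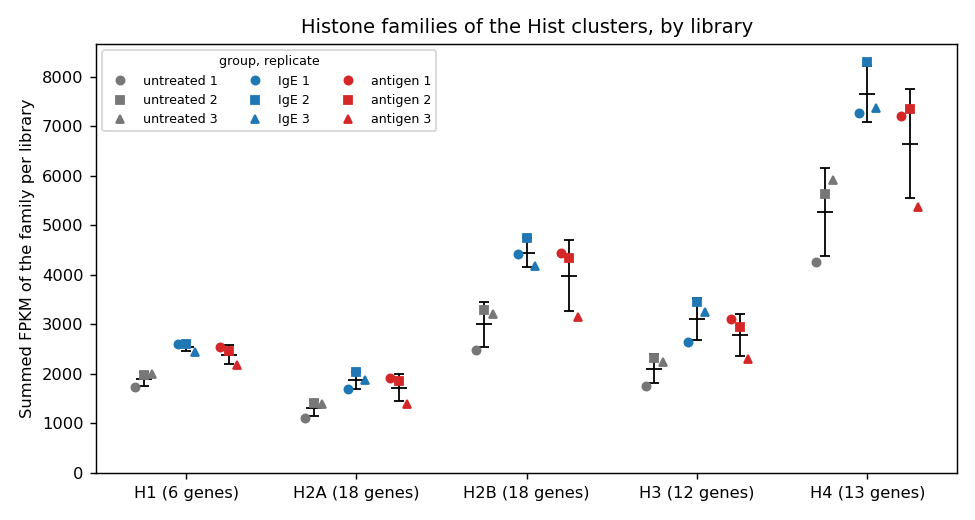
Summed FPKM of each histone family (x axis, with its number of genes) in each of the 9 libraries (y axis, linear from 0), where colours mark the group, symbols the replicate number, and horizontal marks with bars the mean ± SD of 3 libraries. In every family the 3 IgE libraries are above the untreated means, and antigen replicate 3 is the lowest antigen library.

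Within the groups the libraries were not alike. Untreated replicate 1 was the lowest untreated library for 51 of the 57 tested genes, antigen replicate 3 was the lowest antigen library for 52, and IgE replicate 2 was the highest IgE library for 44. The spread within groups is therefore shared between genes, and counts of called genes depend on which libraries are used.

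With IgE, 37 of the 57 tested histone genes were called higher than in untreated cells and 0 lower, with limma on log2(FPKM + 1) and a Benjamini-Hochberg adjusted p under 0.05 over all 10890 genes tested. Over all those genes 14.5% were called higher and 13.1% lower, 27.5% in either direction. At an unadjusted p under 0.05, 46 histone genes were higher and 0 lower, where 2201 and 2186 of all 10890 tested genes were. The median log2 change of the 57 was 0.56, against −0.01 over all tested genes, and 55 of the 57 estimates were positive. The size of the count depended on single libraries: it was 13 without untreated replicate 1, 13 without IgE replicate 2 and 21 without IgE replicate 1. Without both untreated replicate 1 and antigen replicate 3, a choice made after the data were seen, 44 were called higher and 0 lower, with a median of 0.42. Of all 10890 tested genes 1057 were called higher and 864 lower in that fit.

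Fewer were called between IgE and antigen. In that comparison 1 histone gene was called higher and 7 lower, where 36.2% of all tested genes were called higher and 34.9% lower (71.1% in either direction), and the median log2 change was −0.15. Quantile normalization, which forces the same distribution of values on every library, gave 34 lower and 1 higher, and median centring gave 11 lower and 1 higher. Of all 10890 tested genes 3994 were lower and 3309 higher under quantile normalization, and 3926 lower and 3704 higher under median centring. Compared with untreated cells, 24 were called higher and 1 lower after antigen, against 37.2% and 34.4% of all tested genes (71.7% in either direction), with a median log2 change of 0.35. Under quantile normalization these became 3 higher and 2 lower with a median of 0.03, so the level of the clustered genes after antigen relative to untreated cells depends on the scaling. With that scaling 3376 of all 10890 tested genes were higher and 3894 lower. The count of 24 was also 12 without antigen replicate 1, 13 without antigen replicate 2, 12 without untreated replicate 1 and 44 without antigen replicate 3. Each group of libraries enters 2 of the 3 contrasts, so these are not independent of each other.

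The linker histone genes differed among themselves. Hist1h1d, one of the somatic H1 genes, was at 349, 409 and 368 FPKM in untreated cells, 568, 570 and 530 FPKM with IgE and 404, 405 and 358 FPKM with antigen. All 3 IgE libraries were above every other library, and the antigen libraries lay in the untreated range. It rose with IgE by 0.57 on the log2 scale (SE 0.07, limma adjusted p = 0.0012) and fell with antigen by 0.52 (SE 0.07, limma adjusted p = 0.000247), while antigen and untreated cells differed by 0.05 (limma adjusted p = 0.541).

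Hist1h1c, the most abundant linker histone gene here, behaved differently. It was at 577, 597 and 672 FPKM untreated, 702, 693 and 648 FPKM with IgE and 786, 751 and 694 FPKM with antigen. The untreated and IgE values overlapped, as did the IgE and antigen values. The change with IgE was 0.15 (SE 0.07, limma adjusted p = 0.158) and that with antigen against IgE 0.13 (limma adjusted p = 0.145), both short of the threshold. Against untreated cells the antigen level was higher by 0.28 (limma adjusted p = 0.00786), but under quantile normalization that change was −0.083.

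The ratio of Hist1h1c to Hist1h1d within a library does not depend on a linear scaling of that library. It was 1.65, 1.46 and 1.83 in untreated cells, 1.24, 1.22 and 1.22 with IgE, and 1.95, 1.86 and 1.94 with antigen. This ratio was chosen after the values were seen and is given as a description. The 3 groups did not overlap in it.

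The other somatic H1 genes rose with IgE and were not called between IgE and antigen. Hist1h1e was at 422, 491 and 486 FPKM untreated, 631, 642 and 652 FPKM with IgE and 635, 618 and 547 FPKM with antigen, and rose with IgE by 0.46 (SE 0.07, limma adjusted p = 0.00343). Hist1h1a rose with IgE by 0.60 (limma adjusted p = 0.00884), from 234 ± 24.3 to 355 ± 33.3 FPKM (SD, n = 3 each), and stood at 368 ± 50.9 FPKM with antigen. Hist1h1b went from 209 ± 18.6 to 317 ± 14.4 FPKM with IgE, a log2 change of 0.60 (limma adjusted p = 0.00139). Thus 4 of 5 tested H1 genes rose with IgE, and from IgE to antigen 1 fell, or 4 of 5 under quantile normalization. After antigen 4 of 5 were above untreated cells, with a median of 0.36, but under quantile normalization 0 were higher and 1 lower, with a median of −0.03. Over all tested genes 14.5% rose with IgE, 34.9% fell from IgE to antigen and 37.2% were above untreated cells after antigen. With quantile normalization 3994 of all 10890 tested genes fell from IgE to antigen. Against untreated cells 3376 were then higher and 3894 lower. The annotated transcripts of Hist1h1e and Hist1h2be overlap on the same strand, so their reads may not be fully separated.

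**Figure D2:**
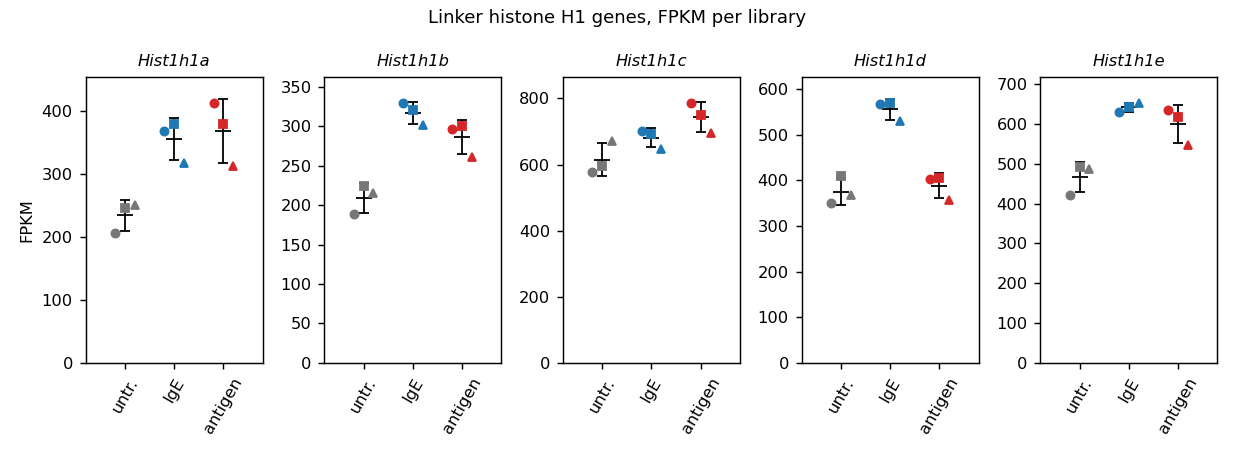
FPKM of the 5 tested linker histone H1 genes in each library (y axes linear from 0 with a scale of their own per gene), by group on the x axis, with symbols for replicates 1 (circle), 2 (square) and 3 (triangle) and bars for the mean ± SD of 3 libraries. Hist1h1d is high in the IgE libraries only, at 530 to 570 FPKM, while Hist1h1c overlaps between neighbouring groups. The order of Hist1h1c, Hist1h1e and the H1 median between antigen and untreated libraries reversed under quantile normalization.

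The promoters of Hist1h1c and Hist1h1d are shown because these genes of the Hist1 cluster are the contrasted pair. Each runs from 250 bases before to 50 bases after the RefSeq start on GRCm38.p6, plus strand, 5′ to 3′, and capitals mark matches on either strand to the TATA box letters TATAAA, the CCAAT box CCAAT and the H1 box AAACACA, a motif known from H1 gene promoters.
Hist1h1c, chr13:23738557-23738856: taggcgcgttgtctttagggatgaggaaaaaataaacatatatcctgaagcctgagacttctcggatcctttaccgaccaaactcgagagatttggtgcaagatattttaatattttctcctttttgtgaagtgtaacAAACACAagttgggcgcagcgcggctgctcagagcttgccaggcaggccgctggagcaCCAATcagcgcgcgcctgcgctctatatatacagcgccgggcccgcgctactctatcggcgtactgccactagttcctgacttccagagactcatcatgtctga
Hist1h1d, chr13:23554782-23555081: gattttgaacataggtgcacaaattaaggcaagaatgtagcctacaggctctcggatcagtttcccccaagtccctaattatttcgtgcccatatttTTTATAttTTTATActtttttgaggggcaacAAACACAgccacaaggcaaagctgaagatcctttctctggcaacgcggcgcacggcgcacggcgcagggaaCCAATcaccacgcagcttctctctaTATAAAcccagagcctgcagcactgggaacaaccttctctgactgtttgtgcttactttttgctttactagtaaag
Both hold the H1 box and a CCAAT box, and the exact letters TATAAA were found in Hist1h1d but not in Hist1h1c. Past its CCAAT box Hist1h1c has the letters tatatata, which an exact search does not mark. The search therefore does not show that the pair differs in having a TATA box. Over the families, AAACACA was present in 5 of 6 H1 promoters and in 7.18% of all 32851 RefSeq promoters of that length. A match describes the letters and no binding.

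In the H2A family, 10 of the 14 tested genes (71.4%) rose with IgE, where 14.5% of all tested genes did. From IgE to antigen 2 (14.3%) were lower and 1 (7.14%) higher, where 34.9% and 36.2% of all tested genes were. Quantile normalization gave 6 lower, where 3994 of all 10890 tested genes were lower. After antigen 6 (42.9%) were above untreated cells, where 37.2% of all tested genes were. With quantile normalization 2 were above them, where 3376 of all 10890 tested genes were. The most abundant, Hist1h2ak, was at 328, 433 and 445 FPKM untreated, 502, 659 and 617 FPKM with IgE and 633, 613 and 454 FPKM with antigen. The IgE libraries lay above the untreated libraries, and its log2 change with IgE was 0.56 (SE 0.17, limma adjusted p = 0.041). Hist2h2ac, from the Hist2 cluster, was at 238, 324 and 287 FPKM untreated and at 373, 428 and 400 FPKM with IgE, a log2 change of 0.51 (limma adjusted p = 0.046). Hist1h2af, at 139, 157 and 145 FPKM untreated and 178, 219 and 209 FPKM with IgE, rose by 0.45 (SE 0.10, limma adjusted p = 0.0114). The last of these held its call in every alternative run, while those of Hist1h2ak and Hist2h2ac did not: without untreated replicate 1 the limma adjusted p of the H2A genes that lost the call ran from 0.0574 to 0.145, and without IgE replicate 2 from 0.0643 to 0.132. Leaving out IgE replicates 1 or 3 or untreated replicates 2 or 3 also took 3 or 4 of the named H2A genes past the threshold, and leaving out antigen replicate 2 took Hist1h2ak and Hist2h2ac past it (0.0582 at most).

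The H2A genes that fell with antigen were both low. Hist2h2ab was at 2.63, 2.92 and 1.80 FPKM untreated, 4.04, 4.22 and 4.04 FPKM with IgE and 3.25, 2.39 and 2.10 FPKM with antigen. The IgE libraries stood above all others, and the log2(FPKM + 1) change from IgE to antigen was −0.52 (limma adjusted p = 0.0111). An antisense gene, Gm15444, overlaps Hist2h2ab, and without strand their reads cannot be told apart. Hist1h2ag was at 17.8, 24.1 and 18.7 FPKM with IgE and 15.3, 17.3 and 10.9 FPKM with antigen, a change of −0.46 (limma adjusted p = 0.0363). That call was lost in 9 of 19 alternatives, among them those without IgE replicate 2 (limma adjusted p = 0.122), IgE replicate 3 (0.0511), antigen replicate 1 (0.0528), antigen replicate 3 (0.0634), untreated replicate 1 (0.0516) and untreated replicate 3 (0.0510).

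Hist2h2aa2 was the gene called higher with antigen than with IgE, at 1.15, 1.18 and 1.44 FPKM against values below 1 FPKM in all other libraries. Because it passed the filter through the antigen libraries alone, it had to differ, and with the filter on the mean it was not tested. Its coding sequence is identical to that of Hist2h2aa1, and none of its 50-base windows is unique. In IgE replicate 1 the deposited value of Hist2h2aa1 was 0.458 FPKM and that of Hist2h2aa2 8.2e-05 FPKM, the reverse of the other 8 libraries. Summed, the pair was at 0.431 to 0.831 FPKM untreated, 0.442 to 0.778 FPKM with IgE and 1.15 to 1.44 FPKM with antigen.

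Of the 16 tested H2B genes 11 (68.8%) rose with IgE, where 14.5% of all tested genes did. Hist2h2bb, the most abundant, was at 482, 586 and 594 FPKM untreated, 867, 939 and 788 FPKM with IgE and 819, 773 and 559 FPKM with antigen. It overlaps Gm42743 on the same strand and the antisense gene Gm20628, and 46.4% of its 50-base windows were unique, so its reads may not be fully separated. It rose with IgE by 0.64 (SE 0.15, limma adjusted p = 0.0158), and the antigen libraries spread from the untreated range to the IgE range. Hist1h2bb rose likewise, from 528 ± 87.4 to 796 ± 58.7 FPKM (log2 change 0.60, limma adjusted p = 0.0287). Hist1h2be, at 390, 506 and 466 FPKM untreated and 552, 670 and 582 FPKM with IgE, did not pass (0.41, limma adjusted p = 0.0901). Without untreated replicate 1 all 5 named H2B genes that were called lost the call, at limma adjusted p from 0.0577 to 0.0868, and without IgE replicate 1 or 2 it was 4 of them, at up to 0.0962. Hist1h2bc also lost it without IgE replicate 3 (0.0557).

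After antigen, 6 of the 16 tested H2B genes (37.5%) were above untreated cells and 1 (6.25%) was below. Over all tested genes 37.2% were above and 34.4% below, so the share above was near that of all genes. Quantile normalization gave 1 H2B gene above and 1 below, where 3376 and 3894 of all 10890 tested genes were. From IgE to antigen 1 H2B gene (6.25%) fell, where 34.9% of all tested genes did. With quantile normalization 10 H2B genes fell, where 3994 of all 10890 did. Hist1h2bp was at 7.17, 7.58 and 9.14 FPKM untreated, 12.9, 11.9 and 11.7 FPKM with IgE and 14.7, 16.9 and 11.6 FPKM with antigen. All antigen libraries were above all untreated libraries, the change was 0.77 (SE 0.13, limma adjusted p = 0.000732), and the call held in every alternative. Hist1h2bc was at 234, 338 and 339 FPKM untreated, 435, 469 and 444 FPKM with IgE and 568, 563 and 415 FPKM with antigen. Its antigen change against untreated was 0.77 (SE 0.17, limma adjusted p = 0.00302), with a limma adjusted p of 0.0723 under quantile normalization. Hist1h2bg was at 336 ± 56.4 FPKM with antigen against 219 ± 37.5 FPKM untreated, and the H2A gene Hist1h2ac at 64.1 ± 12.4 against 41.2 ± 7.06 FPKM (SD, n = 3 each). Of these, Hist1h2ac kept its antigen call in every alternative.

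Hist2h2be, an H2B gene known in mouse from olfactory neurons, went against the family. It was at 4.56, 4.39 and 5.02 FPKM untreated, 4.76, 5.05 and 4.48 FPKM with IgE and 3.40, 3.20 and 3.44 FPKM with antigen. Untreated and IgE libraries overlapped fully, and all antigen libraries were below them. The change with IgE was 0.03 (limma adjusted p = 0.769), and with antigen it fell by 0.41 against IgE (SE 0.06, limma adjusted p = 0.000258) and by 0.38 against untreated cells (limma adjusted p = 0.000387). Both calls held in every alternative. All 50-base windows of its transcript were unique in the annotation, so its reads are separable from those of other members.

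The promoter of Hist1h2bb is shown as an H2B promoter with the octamer ATTTGCAT, the motif bound by the factor that Pou2f1 encodes. Capitals mark ATTTGCAT, CCAAT and TATAAA on either strand.
Hist1h2bb, chr13:23746484-23746783, plus strand of GRCm38.p6: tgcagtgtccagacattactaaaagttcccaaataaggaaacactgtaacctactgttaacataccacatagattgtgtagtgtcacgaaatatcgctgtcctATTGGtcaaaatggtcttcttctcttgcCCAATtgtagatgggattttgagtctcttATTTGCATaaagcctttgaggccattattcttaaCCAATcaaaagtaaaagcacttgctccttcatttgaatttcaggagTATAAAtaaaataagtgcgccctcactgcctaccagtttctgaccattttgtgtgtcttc
Of 61 promoters of these genes in the RefSeq table, 14 held the octamer, 7 of 17 for H2A and 7 of 16 for H2B, and 0 of the 28 for H1, H3 and H4, where 1.73% of all 32851 promoters did. CCAAT was present in all H1, H2A, H2B and H3 promoters and in 3 of 12 for H4, against 37.4% of all promoters. TATAAA was found in 57.4% of the histone promoters and 13.6% of all.

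Among the H3 genes 7 of 10 rose with IgE, where 14.5% of all tested genes did. Hist1h3g was at 152, 211 and 206 FPKM untreated, 322, 355 and 315 FPKM with IgE and 227, 212 and 177 FPKM with antigen. The IgE libraries were above all others, and antigen and untreated libraries overlapped. It rose with IgE by 0.81 (SE 0.14, limma adjusted p = 0.00411) and fell with antigen by 0.69 (SE 0.14, limma adjusted p = 0.00191), and both calls held in every alternative. Hist1h3d was at 138, 172 and 171 FPKM untreated, 242, 281 and 243 FPKM with IgE and 203, 212 and 160 FPKM with antigen. It rose with IgE by 0.67 (limma adjusted p = 0.00646) and fell with antigen by 0.42 (limma adjusted p = 0.0161), the latter at 0.0575 without IgE replicate 2. Hist1h3g shares most of its sequence with other H3 genes: 45.9% of its 50-base windows were unique, and 75.2% of those of Hist1h3d.

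From IgE to antigen 2 of the 10 H3 genes (20%) fell, below the 34.9% of all tested genes. Quantile normalization gave 6 that fell, where 3994 of all 10890 tested genes did. The following were among the H3 genes not called in the fit without that scaling. Hist1h3a was at 146, 204 and 186 FPKM untreated, 267, 320 and 304 FPKM with IgE and 302, 292 and 220 FPKM with antigen. Its rise with IgE was 0.74 (SE 0.16, limma adjusted p = 0.0103), and the change from IgE to antigen was −0.14 (limma adjusted p = 0.442). Hist1h3e, the most abundant H3 gene, rose with IgE from 509 ± 82.4 to 741 ± 41.4 FPKM (0.55, limma adjusted p = 0.0269) and was at 696 ± 114 FPKM with antigen. Hist1h3h rose from 32.4 ± 5.02 to 54.0 ± 4.65 FPKM (0.72, limma adjusted p = 0.0192). The IgE calls of Hist1h3e and Hist1h3h were lost without untreated replicate 1 (limma adjusted p = 0.0737 and 0.0667) or IgE replicate 2, and that of Hist1h3e without IgE replicate 1 (0.0532).

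Hist1h3b and Hist1h3c missed the threshold with IgE. Hist1h3b was at 278, 356 and 363 FPKM untreated and 319, 611 and 475 FPKM with IgE, so the groups overlapped (0.45, limma adjusted p = 0.188). Hist1h3c was at 199, 268 and 177 FPKM untreated, 240, 272 and 379 FPKM with IgE and 396, 269 and 290 FPKM with antigen. Its antigen change against untreated was 0.57 (limma adjusted p = 0.0476), a call lost without antigen replicate 1, untreated replicate 1, untreated replicate 3 or IgE replicate 2, at limma adjusted p of up to 0.153. In all, 5 of 10 H3 genes (50%) were above untreated cells after antigen, where 37.2% of all tested genes were. Quantile normalization gave 0 H3 genes above untreated cells, where 3376 of all 10890 tested genes were.

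The H4 genes encode the same protein, and their coding sequences had a median pairwise identity of 93.9%. With IgE 5 of the 12 tested (41.7%) rose, where 14.5% of all tested genes did. Hist1h4a was at 192, 234 and 275 FPKM untreated, 398, 462 and 379 FPKM with IgE and 344, 359 and 249 FPKM with antigen. The IgE libraries were above all others, the rise was 0.83 (SE 0.17, limma adjusted p = 0.0094), and it held in every alternative. The change from IgE to antigen was −0.39 (limma adjusted p = 0.0674). Its change from untreated to antigen was 0.44 (limma adjusted p = 0.0463) and reversed to −0.0027 under quantile normalization. Leaving out any library other than untreated replicate 3 or antigen replicate 3 also took that adjusted p past the threshold, to at most 0.154.

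Hist1h4d, the most abundant member, was at 1536, 1879 and 1973 FPKM untreated, 2372, 2728 and 2367 FPKM with IgE and 2514, 2532 and 1994 FPKM with antigen. Each IgE and antigen library was above each untreated library. It rose with IgE by 0.48 (SE 0.13, limma adjusted p = 0.0271) and the change from IgE to antigen was −0.09 (limma adjusted p = 0.545). Hist1h4h, at 762 ± 143 FPKM untreated and 1085 ± 84.9 FPKM with IgE, and Hist1h4c, at 680 ± 126 and 944 ± 55.0 FPKM, missed the threshold (limma adjusted p = 0.0607 and 0.0635).

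Hist1h4f was at 391, 545 and 553 FPKM untreated, 744, 850 and 757 FPKM with IgE and 568, 573 and 413 FPKM with antigen. The IgE libraries stood above all others, and the antigen libraries overlapped the untreated range. The rise was 0.67 (SE 0.17, limma adjusted p = 0.0194) and the fall 0.61 (SE 0.17, limma adjusted p = 0.0103), the latter in every alternative. Without untreated replicate 1 or IgE replicate 2, or IgE replicate 1 in the case of Hist1h4d, the IgE calls of Hist1h4d and Hist1h4f were lost, at limma adjusted p of 0.0523 to 0.0894. From IgE to antigen 1 of 12 H4 genes (8.33%) fell, below the 34.9% of all tested genes. Quantile normalization gave 8 H4 genes that fell, where 3994 of all 10890 tested genes did. In the antigen comparison with untreated cells 3 of 12 H4 genes (25%) were higher, with a median of 0.29. That share was below the 37.2% of all tested genes. With quantile normalization 0 H4 genes were higher, with a median of −0.03, where 3376 of all 10890 tested genes were higher.

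**Figure D3:**
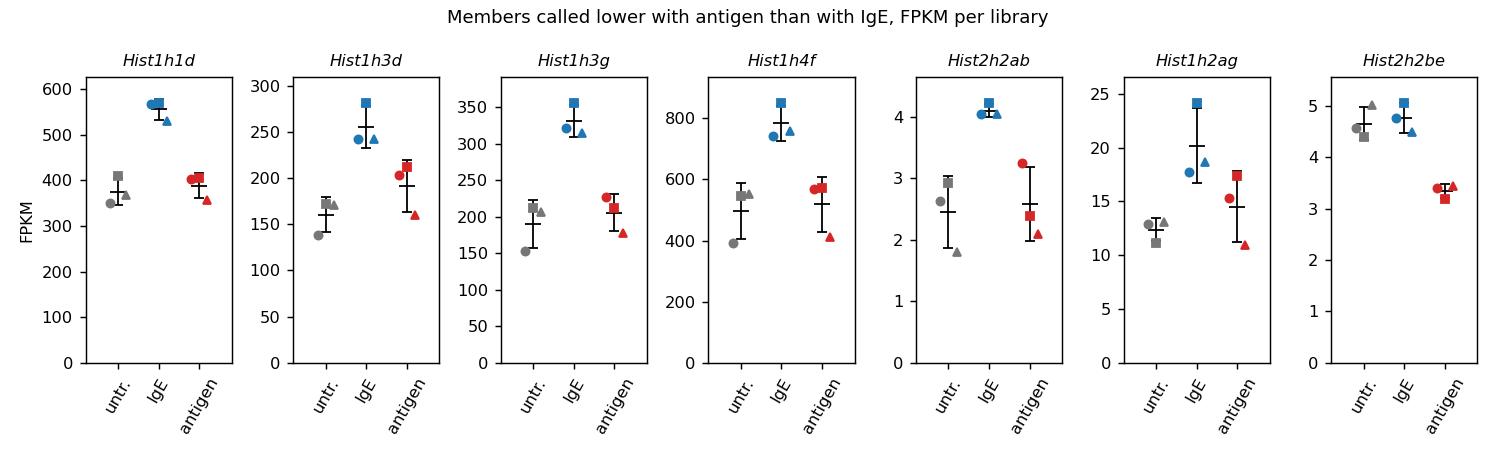
FPKM per library of the 7 histone genes called lower with antigen than with IgE (y axes linear from 0 with a scale of their own per gene), by group on the x axis, with symbols for replicates 1 (circle), 2 (square) and 3 (triangle) and bars for the mean ± SD of 3 libraries. In Hist1h1d, Hist1h3g, Hist1h4f and Hist2h2ab the antigen libraries overlap the untreated range, while Hist2h2be is at 3.20 to 3.44 FPKM with antigen and at 4.39 to 5.05 FPKM in the other groups.

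A few members varied too much within groups to be compared. Hist1h4j was at 16.5, 105 and 115 FPKM untreated, 143, 173 and 171 FPKM with IgE and 30.1, 134 and 90.3 FPKM with antigen. Hist1h4i was at 16, 24.4 and 41.6 FPKM untreated, 20.7, 69.2 and 18.2 FPKM with IgE and 23.8, 70.0 and 19.0 FPKM with antigen. Hist2h3b was at 77.6 FPKM in IgE replicate 1 and at 296 and 286 FPKM in the other IgE libraries. None of these was called in any comparison, although Hist1h4j had the largest estimate with IgE (1.44, limma adjusted p = 0.2). All 3 share sequence with other members: 75.4%, 71.1% and 20.3% of their 50-base windows were unique. Across the 67 genes 32 had under 50% unique windows and 9 had at least 90%. How the authors divided reads between such copies is not given in the sources used here, so values of single genes with low shares are uncertain.

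Members of the Hist3 and Hist4 clusters were not called with IgE. Hist3h2a was at 127 ± 14.7, 158 ± 12.4 and 166 ± 22.3 FPKM in untreated, IgE and antigen cells, Hist3h2ba at 7.21 ± 1.28, 6.70 ± 1.17 and 6.28 ± 1.40 FPKM, the pseudogene Hist3h2bb-ps at 17.9 ± 0.611, 21.2 ± 2.42 and 22.2 ± 2.23 FPKM, and Hist4h4 at 143 ± 19.2, 186 ± 9.18 and 149 ± 30.4 FPKM (SD, n = 3 each). The limma adjusted p with IgE was 0.086, 0.74, 0.1 and 0.1 in that order. After antigen Hist3h2a was higher than in untreated cells by 0.38 (limma adjusted p = 0.0184) and Hist3h2bb-ps by 0.29 (limma adjusted p = 0.0196). Under quantile normalization the change of Hist3h2a reversed to −0.0060 and the limma adjusted p of Hist3h2bb-ps was 0.051. Both calls were also lost without untreated replicate 1, antigen replicate 1 or antigen replicate 2, at limma adjusted p of 0.0598 to 0.0681.

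Genes that copy DNA were higher with IgE than in untreated cells and mostly lower after antigen than with IgE. Of 30 listed DNA replication genes 30 rose with IgE, with a median of 0.66, where 14.5% of all tested genes rose. With antigen against IgE 27 fell and 1 rose, with a median of −0.76, where 34.9% of all tested genes fell. Against untreated cells 5 (16.7%) were higher and 14 (46.7%) lower after antigen, with a median of −0.11. Over all tested genes 37.2% were higher and 34.4% lower there. The difference of the replication genes from the histone genes was not tested. Mcm3, a subunit of the replicative helicase, was at 59.5 ± 1.51 FPKM untreated, 88.9 ± 2.24 with IgE and 49.7 ± 0.636 with antigen (SD, n = 3 each). Lig1, the ligase that joins the fragments of the lagging strand, was at 18.3 ± 0.0452, 31.3 ± 1.14 and 19.0 ± 0.826 FPKM. Pcna, the sliding clamp of the polymerases, was the exception, at 161 ± 5.03, 244 ± 13.6 and 350 ± 16.2 FPKM, and was the listed gene that rose with antigen (0.52, limma adjusted p = 3.14e-05). Of 20 mitosis genes 20 rose with IgE (median 0.41) and 19 fell with antigen (median −0.49), among them Aurkb, a mitotic kinase, at 15.3 ± 0.680, 23.2 ± 1.59 and 11.6 ± 0.0937 FPKM. Against untreated cells 2 mitosis genes (10%) were higher and 9 (45%) lower after antigen, with a median of −0.09. The part of these cell cycle genes in the histone values was not tested.

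Of 21 tested factors that make, process or degrade histone mRNA, 4 (19.0%) were higher and 2 (9.52%) lower with IgE. Over all tested genes 14.5% were higher and 13.1% lower in that comparison. With antigen against IgE 7 (33.3%) were higher and 6 (28.6%) lower, shares near the 36.2% and 34.9% of all tested genes. Against untreated cells 8 (38.1%) were higher and 7 (33.3%) lower after antigen, near the 37.2% and 34.4% of all tested genes. These counts were 6 and 8 under median centring and 5 and 7 under quantile normalization. Slbp, the stem-loop binding protein, was at 49.2, 52.9 and 50.2 FPKM untreated, 66.0, 66.5 and 58.7 FPKM with IgE and 34.0, 35.4 and 36.7 FPKM with antigen. The groups did not overlap. It rose with IgE by 0.32 (limma adjusted p = 0.00447) and fell with antigen by 0.83 against IgE (limma adjusted p = 2.53e-06) and by 0.51 against untreated cells (limma adjusted p = 5.06e-05). Npat, the coactivator of clustered histone genes, was at 9.53 ± 0.0621, 9.52 ± 0.423 and 7.03 ± 0.467 FPKM and fell with antigen by 0.39 (limma adjusted p = 0.000154). Pou2f1, which encodes an octamer-binding factor, was at 3.15 ± 0.236, 2.75 ± 0.308 and 9.09 ± 0.645 FPKM and rose with antigen by 1.43 (limma adjusted p = 6.43e-07). Lsm11, a subunit of the particle that recognises the pre-mRNA end, rose with antigen by 0.31 (limma adjusted p = 0.000676), while Cpsf3, the endonuclease of that step, fell by 0.26 (limma adjusted p = 5.42e-05).

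Histone chaperones carry new histones to DNA. Of 22 tested, 14 rose and 2 fell with IgE, where 14.5% and 13.1% of all tested genes did. With antigen against IgE 3 rose and 12 fell, or 1 and 16 under quantile normalization. In that comparison 36.2% of all tested genes rose and 34.9% fell. Chaf1a, a subunit of the factor that loads H3 and H4 behind the fork, was at 8.37 ± 0.263, 13.5 ± 1.01 and 5.39 ± 0.389 FPKM in untreated, IgE and antigen cells (SD, n = 3 each). Asf1b, which hands H3 and H4 to that factor, was at 22.8 ± 1.56, 38.4 ± 2.35 and 18.4 ± 0.225 FPKM. Both fell with antigen, by 1.19 and 1.02 (limma adjusted p = 6.48e-07 and 9.11e-07). Hat1, which acetylates new H4, went the other way, at 22.8 ± 1.91, 31.2 ± 3.11 and 41.4 ± 1.27 FPKM (0.40 from IgE to antigen, limma adjusted p = 0.002). Against untreated cells 7 were higher and 11 lower after antigen, or 2 and 11 under quantile normalization. Without that scaling 37.2% of all tested genes were higher and 34.4% lower.

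The replacement histone genes lie outside the clusters, and their difference from the clustered genes was not tested. Of 10 tested, 5 rose and 0 fell with IgE (median 0.13, and 0 lower at an unadjusted p under 0.05). Over all 10890 tested genes 14.5% rose and 13.1% fell with IgE, and 2186 were lower at that unadjusted p. With antigen against IgE 5 rose and 0 fell with limma, also 0 at an unadjusted p under 0.05 (median 0.23). Over all tested genes 36.2% rose and 34.9% fell there, and 3913 were lower at that unadjusted p. The split of the replacement genes was 3 higher and 4 lower under quantile normalization and 5 higher and 1 lower under median centring. Cenpa, the centromeric form of H3, was at 16.7, 19.2 and 19.3 FPKM untreated, 22.4, 22.8 and 22.4 FPKM with IgE and 48.7, 52.5 and 49.3 FPKM with antigen. The groups did not overlap, and the rise with antigen was 1.12 (limma adjusted p = 4.21e-07). H2afz, which encodes H2A.Z, was at 195 ± 8.66, 271 ± 26.1 and 396 ± 5.35 FPKM, with a rise from IgE to antigen of 0.55 (limma adjusted p = 0.000125). H3f3b, which encodes H3.3, was at 285 ± 8.87, 294 ± 18.0 and 468 ± 8.58 FPKM, a change of 0.04 with IgE (limma adjusted p = 0.577) and a rise of 0.67 with antigen (limma adjusted p = 4.61e-06). Against untreated cells 7 of 10 were higher and 0 lower after antigen (0 lower at an unadjusted p under 0.05 too), or 4 and 4 under quantile normalization. Without that scaling 37.2% of all tested genes were higher and 34.4% lower, and 3851 were lower at that unadjusted p.

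**Figure D4:**
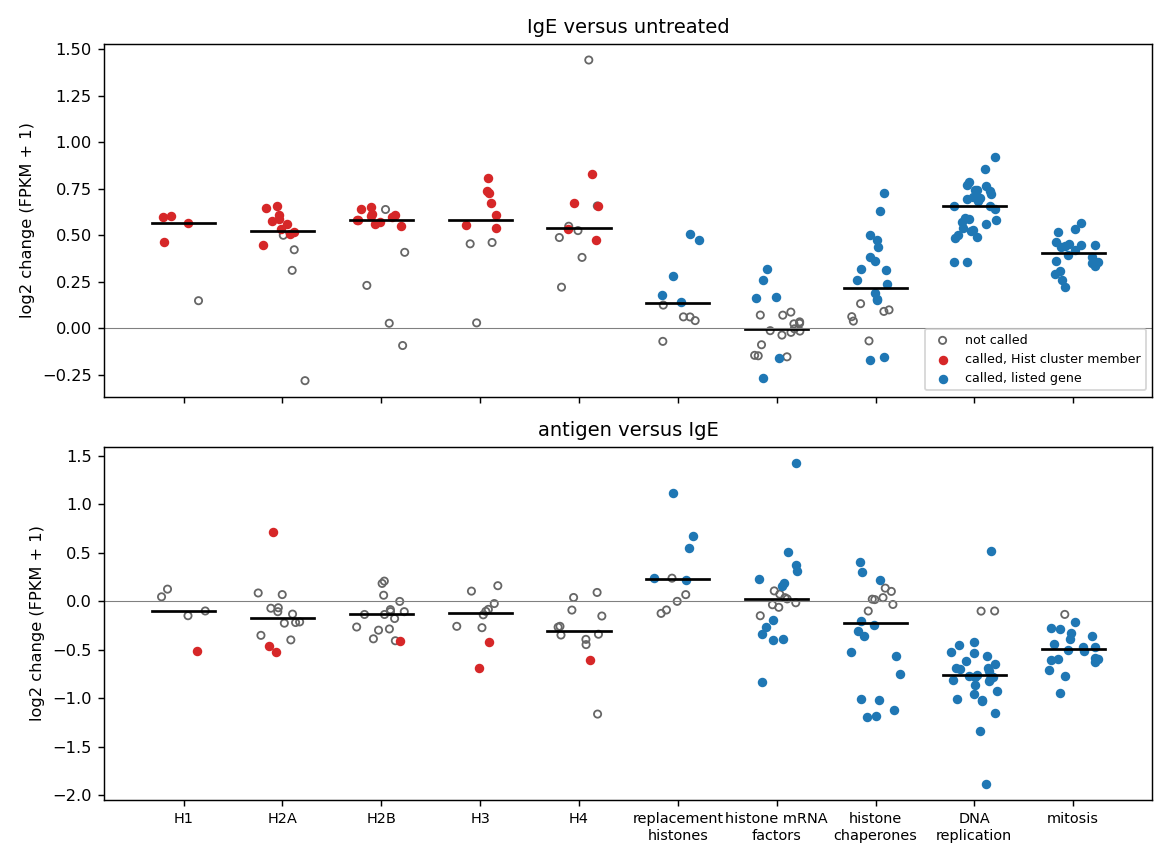
Log2 change of FPKM + 1 (y axis) for each tested gene of the 5 histone families and of 5 lists of related genes (x axis), with IgE against untreated above and antigen against IgE below. Filled points were called (adjusted p under 0.05) and horizontal lines are medians. With IgE the clustered histone medians lie between 0.53 and 0.58 and the DNA replication median at 0.66, and with antigen they lie between −0.30 and −0.10 and at −0.76. Under quantile normalization the antigen medians of the families were −0.53 to −0.34 and that of the replacement histones was −0.02 in place of 0.23.

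Whether an annotated transcript carried the stem-loop, or ran on past it, was set beside the changes. With IgE the median log2 change was 0.59 for the 18 tested genes whose transcript ended under 100 bases past the stem-loop, 0.52 for the 19 that ran 100 bases or more past it and 0.59 for the 20 without the motif. With antigen against IgE the medians were −0.25, −0.09 and −0.18. After antigen 11 (57.9%) of the 19 with longer transcripts were called above untreated cells. So were 4 (22.2%) of the 18 with short ones and 9 (45%) of the 20 without the motif. Over all tested genes 37.2% were called higher in that comparison. These classes come from the annotation and not from the reads, the differences between them were not tested, and the counts depend on the scaling as stated above.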

How the data were processed

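The authors deposited 1 table of FPKM values per gene for 9 libraries, 3 per group. The submitters' processing notes list the aligners TopHat2 (2.0.12) and Bowtie (0.12.7) and the build mm9. How FPKM were computed, from which annotation, with or without strand, and with what handling of reads shared between copies, is not given in the sources used here.

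FPKM are not counts, so log2(FPKM + 1) was fitted with limma 3.58.1 (R 4.3.3), with a coefficient per group and a trended prior, on the 10890 genes that reached 1 FPKM in 3 or more libraries. Tests were two-sided, with Benjamini-Hochberg adjustment over all tested genes of a comparison and a threshold of 0.05. Changes on this scale understate those of low genes. Named are the 3 highest members per family, up to 5 largest called rises and falls per comparison, the testis genes and up to 4 called genes per list by adjusted p. Genes with large replicate spread, Hist1h1b, Hist3h2a, Hist3h2ba, Hist3h2bb-ps and Hist4h4 were added after their values were seen. Members and lists were chosen with earlier results of these data known. Replicate numbers were not taken as pairs. Alternatives were other pseudocounts (0.1 and 0.5), filters, scalings, spread models, a replicate block and leaving out libraries. The fit was tested on simulated data. Stem-loops came from GENCODE M21 transcripts, promoters from the RefSeq table of GRCm38.p6, matched by synonym. The table's build is mm9, so no coordinates were transferred.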

Additional observations from a re-analysis of the deposited data

How the results depend on the processing

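Of the 57 tested histone genes, those called higher with IgE than untreated numbered 37, 24 with no filter on low values, and 13 to 46 when single libraries were left out. Called lower: 0 in every alternative. Against IgE, antigen gave 1 higher and 7 lower, with 0 higher under the filter on the mean, 11 lower under median centring, 34 lower under quantile normalization, 1 to 2 higher and 6 to 10 lower when single libraries were left out, and 6 higher and 13 lower without both untreated replicate 1 and antigen replicate 3. Antigen against untreated gave 24 higher and 1 lower, with 3 and 2 under quantile normalization, 12 to 44 higher when single libraries were left out and 41 without both of those libraries. Over all genes, 1575 were called higher and 1424 lower with IgE, 1015 to 1942 and 880 to 1945 when single libraries were left out. The log2 changes of Hist1h1c, Hist1h1e and Hist1h4a between antigen and untreated reversed to −0.083, −0.033 and −0.0027 under quantile normalization. Beyond what a scaling does by construction, the cause was not tested. Both scalings moved the median of all genes by under 0.1.

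With the replicate block, histone genes called numbered 27 higher with IgE, 1 higher and 7 lower with antigen against IgE, and 21 higher and 1 lower with antigen against untreated, each within 1.5 times the count without it. Over all tested genes, deviations from the group means correlated at −0.153 to 0.350 between same-numbered libraries (9 pairs) and at −0.349 to 0.244 between others (18 pairs), so the numbers were not taken as pairs.

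Depth limits the genes near or under 1 FPKM, where counting error for a 0.5 kb transcript is 31.2% at 1 FPKM in the shallowest library, and shared sequence limits single members of near-identical families.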
